A study of Mus musculus with 9 samples.

Results

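The transcripts described here are those of Cxcl9, Cxcl10 and Cxcl11, the chemokines that bind the receptor CXCR3. They were chosen by gene symbol, and all 3 were found among the 19938 genes with a named transcript cluster on the array. A transcript cluster is the set of probes for 1 gene locus, and each of these genes had 1. RNA was measured on 9 Affymetrix arrays of splenic conventional dendritic cells (cDC), sorted from 129SvEv/Tac mice, to find genes that depend on BATF proteins. The groups were activated cDC2 from Batf-/- Batf3-/- mice (double knockout, DKO), activated cDC2 from wild-type (WT) mice, resting cDC2 from DKO mice, resting cDC1 from WT mice and resting cDC2 from WT mice. Each cDC2 group had 2 arrays and the cDC1 group had 1. Activation was 1 h of IFN-gamma (100 ng/ml) followed by 3 h with LPS from E. coli (1 µg/ml) added. Both genes were absent from the whole mouse in the DKO groups, and mice without Batf3 are known to lack most cDC1, so these cDC2 came from animals that differ from WT in more than the sorted cell. Whether the paired arrays within a group stem from different mice is not stated, and the p-values therefore measure sample-to-sample spread alone, possibly of technical origin. Nor is it stated whether the resting cells were cultured. The age of the mice and the sort gates are not given in the sources used here.

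CXCL9, CXCL10 and CXCL11 are small secreted chemokines made by dendritic cells, macrophages and stromal cells after interferon. They draw CXCR3-bearing activated T cells and NK cells into inflamed tissue and position them within lymphoid organs. Cxcl9 depends mostly on IFN-gamma, while Cxcl10 and Cxcl11 also answer to type I interferon, and Cxcl10 to IRF3 and NF-kappaB downstream of LPS. BATF and BATF3 are AP-1 family transcription factors that bind DNA with JUN proteins and, in dendritic cells and lymphocytes, together with IRF4 or IRF8. In mice of strain C57BL/6 the Cxcl11 reading frame is broken by a frameshift, and the reference annotation of C57BL/6J (GRCm38.p6) lists Cxcl11 as a transcribed pseudogene. The array measures its RNA, which says nothing of protein.

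The genes lie side by side on mouse chromosome 5 (GRCm38.p6). Cxcl9 spans bases 92321331 to 92328079 and Cxcl10 spans 92346638 to 92348889. Cxcl11 spans 92359544 to 92363296. Between Cxcl9 and Cxcl10 there are 18558 bases, and between Cxcl10 and Cxcl11 there are 10654. RefSeq promoter windows (GRCm38.p6, 250 bases before to 50 after the start of the gene) were matched for 2 of the 3 genes, Cxcl9 and Cxcl10. They are shown because both genes rose on activation and because the deleted factors belong to the AP-1 family. Cxcl11 rose too, but no promoter window was available for it. Both lie on the minus strand, Cxcl9 at chr5:92328030-92328329 and Cxcl10 at chr5:92348840-92349139. They are written 5′ to 3′ along the gene, and capitals mark matches to the motifs searched:
Cxcl9: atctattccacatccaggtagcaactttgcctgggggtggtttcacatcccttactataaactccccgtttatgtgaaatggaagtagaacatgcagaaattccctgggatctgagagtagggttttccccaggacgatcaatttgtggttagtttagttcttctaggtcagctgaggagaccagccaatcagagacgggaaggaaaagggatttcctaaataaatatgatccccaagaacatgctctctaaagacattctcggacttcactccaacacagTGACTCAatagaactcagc
Cxcl10: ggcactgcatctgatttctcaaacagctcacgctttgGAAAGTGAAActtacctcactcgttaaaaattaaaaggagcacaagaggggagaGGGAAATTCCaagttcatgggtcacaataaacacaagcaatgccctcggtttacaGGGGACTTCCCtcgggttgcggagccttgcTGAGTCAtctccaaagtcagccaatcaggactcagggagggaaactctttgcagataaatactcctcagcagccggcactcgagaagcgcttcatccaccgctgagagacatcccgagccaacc

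Both strands were searched for 4 motifs: AP-1 (TGANTCA), the core of the interferon-stimulated response element or ISRE (GAAA and GAAA with 2 free bases between them), the gamma-activated sequence or GAS (TTCNNNGAA), and the kappaB consensus. The Cxcl10 window held an ISRE core from base -213 to -204, counted from the start of the gene. It held an AP-1 match from base -74 to -68. Its kappaB matches ran from base -159 to -150 and, as a pair that overlap each other, from base -104 to -94. The Cxcl9 window held 1 match, an AP-1 motif from base 32 to 38, within the transcribed part. Neither window held a GAS match. Of 27025 promoter windows of the same length, 7.93% held the AP-1 motif, 3.49% the ISRE core, 8.18% the kappaB consensus and 8.47% GAS. Such matches are letters in a window, and binding was not measured.

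Deposited intensities were taken to log2, and all levels below are log2 intensities. Differences were tested with limma in 1 fit of all 9 arrays, with Benjamini-Hochberg adjustment over the 10728 genes that were bright enough in at least 1 group, that is, above 5.94. The threshold was an adjusted p under 0.05. All 3 chemokines were tested, and errors of differences are standard errors (SE). The labels were set against defining genes. Batf read 5.31 to 5.44 on the DKO arrays, against 6.74 to 9.07 on the WT arrays, and Batf3 read 6.43 to 7.17 on the DKO arrays, against 7.58 to 9.92 on the WT arrays. Where the probes lie relative to the deletions is not known. On the cDC1 array the cDC1 receptor Xcr1 read 9.33, against 4.42 to 4.73 on the cDC2 arrays, and Irf4, a factor of cDC2, read 5.13 on the cDC1 array, against 9.37 to 11.02 on the cDC2 arrays. Of the 6 cDC2 markers bright enough to be tested, 5 were lower in cDC1 past the threshold and 1, Clec12a, was higher, at 11.27 on the cDC1 array, against 5.64 to 7.17 on the cDC2 arrays. Of the other cDC2 markers, Clec4a4, Clec4a2 and Cd209a stayed at or below 5.29 on every array, and Itgam at or below 6.02. Of the 7 NK cell markers and the 6 B cell markers measured, none was bright enough to be tested. One array stood apart in interferon genes: a list of 28 interferon-stimulated genes averaged 10.95 on WT resting replicate 2, against 9.54 on WT resting replicate 1. For the chemokines and the interferon lists, values without it stand beside each result that uses it. Those fits keep the other arrays numbered 2, so the groups are no longer matched by replicate number.

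Activated cDC2 of both genotypes had the highest levels of all 3 chemokines. Cxcl9 read 12.22 and 12.21 in activated DKO cDC2 (replicates 1 and 2), and 12.44 and 12.40 in activated WT cDC2. It read 6.92 and 6.50 in resting DKO cDC2, 9.70 in resting WT cDC1, and 6.98 and 8.02 in resting WT cDC2. Activated cells thus lay above every resting array, cDC1 lay between activated and resting cDC2, and DKO replicate 1 nearly met WT replicate 1 at rest.

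Cxcl10 read 12.40 and 12.19 in activated DKO cDC2, and 12.73 and 12.55 in activated WT cDC2. It read 8.05 and 6.17 in resting DKO cDC2, 8.56 in resting WT cDC1, and 9.57 and 10.47 in resting WT cDC2. Here resting WT cDC2 were the highest of the resting cells, and cDC1 lay above both resting DKO arrays. The resting DKO arrays were 1.88 apart, and 4 of the 10728 tested genes had a wider gap between that pair.

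Cxcl11 read 10.13 and 10.07 in activated DKO cDC2, and 10.26 and 10.26 in activated WT cDC2. It read 5.79 and 5.70 in resting DKO cDC2, 6.32 in resting WT cDC1, and 6.96 and 7.55 in resting WT cDC2. The order of groups was that of Cxcl10. Both resting DKO arrays were below the brightness limit of 5.94, so the true distance of resting DKO from the other groups may be larger than the values show.

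**Figure D1:**
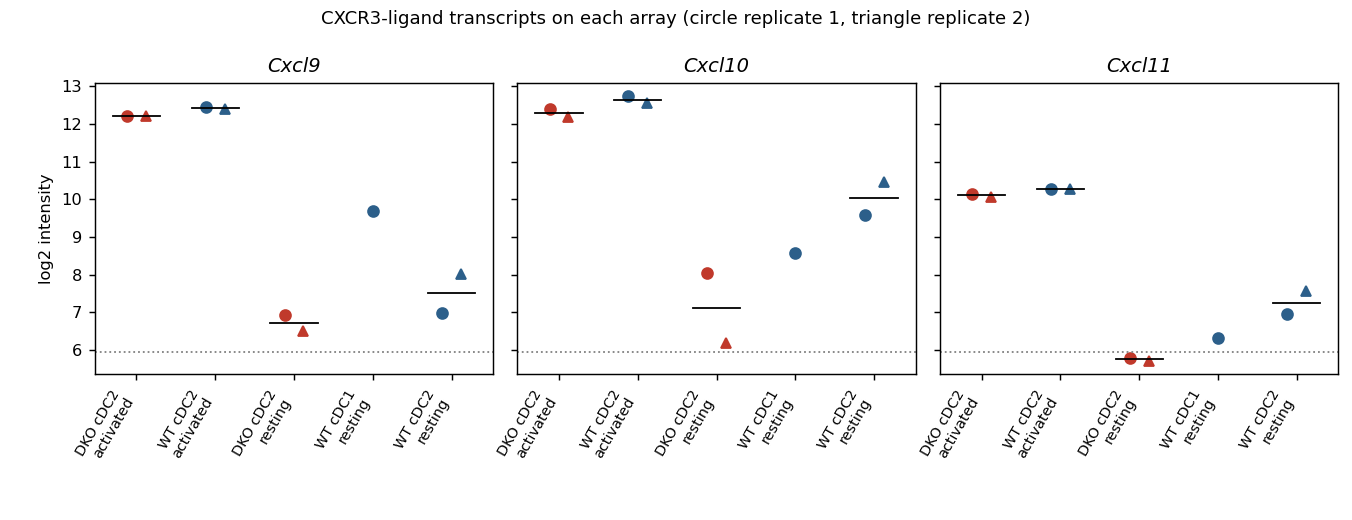
Log2 intensity of Cxcl9, Cxcl10 and Cxcl11 (panels) on each of the 9 arrays, with the groups along the horizontal axis, DKO in red and WT in blue; black lines are means of 2 arrays and the dotted line is the brightness limit of 5.94. Activated arrays sit at 12.19 to 12.73 for Cxcl9 and Cxcl10 and at 10.07 to 10.26 for Cxcl11, and the groups spread apart at rest.

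The question at rest was whether the level of each chemokine depends on BATF and BATF3. All 3 stood lower in resting DKO than in resting WT cDC2, Cxcl10 the furthest, and none passed the threshold over all genes in the fit without pairing. Over all 10728 genes, 2 passed, both lower in DKO (0.0186%), and 707 (6.59%) had an unadjusted p under 0.05. Fewer cells that make a transcript and less RNA per cell cannot be told apart in these bulk samples.

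Cxcl10 averaged 7.11 ± 1.33 in resting DKO cDC2 and 10.02 ± 0.64 in resting WT cDC2 (SD, n = 2 each). The difference was -2.91 ± 0.60, a level 0.133 times that of WT (limma adjusted p = 0.414, 95% interval -4.35 to -1.47). It was the lowest difference of all 10728 genes tested. Both Cxcl10 pairs were widely spread, by 1.88 in DKO and 0.91 in WT, against median gaps of 0.15 and 0.17 over all genes tested.

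Cxcl11 averaged 5.75 ± 0.06 in resting DKO cDC2 and 7.26 ± 0.42 in resting WT cDC2 (SD, n = 2 each). The difference was -1.51 ± 0.19, a level 0.352 times that of WT (limma adjusted p = 0.191, 95% interval -1.96 to -1.06). Replicate numbers were taken to pair the arrays because their deviations correlated between groups, though the labels do not say what a number marks. With the number as a block in the limma fit Cxcl11 passed (adjusted p = 0.0257), among 34 genes higher and 45 lower in DKO (0.736% of those tested). Cxcl10 had an adjusted p of 0.0851 in that limma fit and did not pass. Without the block, Cxcl11 stood at -1.80 when WT resting replicate 1 was left out. That leaves replicate 2, the array high in interferon genes, as the only WT resting array. When WT resting replicate 2 was left out instead, Cxcl11 stood at -1.21.

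Cxcl9 averaged 6.71 ± 0.30 in resting DKO cDC2 and 7.50 ± 0.74 in resting WT cDC2 (SD, n = 2 each). The difference was -0.78 ± 0.32 (limma adjusted p = 0.757, and 0.293 with the replicate block). In none of the 3 genes did the DKO and WT arrays overlap, and DKO was the lower side each time, as it was for 13.4% of all genes tested. For Cxcl9 this separation was 6.92 on the higher DKO array against 6.98 on the lower WT array.

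The interferon state of the WT arrays moved with these values. The 28 interferon-stimulated genes averaged 9.06 and 9.34 in resting DKO cDC2, against 9.54 and 10.95 in resting WT cDC2. All 28 stood lower in DKO, with a median of -0.98, against 0.01 over all genes tested, and 0 passed (1 with the replicate block). A list of 10 IFN-gamma-responsive genes, mostly GTPases, averaged 7.35 and 7.34 in resting DKO cDC2, against 7.48 and 8.38 in resting WT cDC2. Its median difference was -0.34, all 10 stood lower in DKO, and 0 passed. Leaving out WT resting replicate 2 kept DKO resting replicate 2, so the arrays were no longer matched by number. The medians of the lists were then -0.18 and -0.03. The replicate 1 arrays alone gave a median of -0.49 for the interferon-stimulated list. Without WT resting replicate 2, Cxcl9 stood at -0.26, Cxcl10 at -2.46 and Cxcl11 at -1.21 by limma. Of the 28 interferon-stimulated genes, which then ranged from -1.81 to 1.46, 0 stood lower than Cxcl10, 4 stood lower than Cxcl11 and 12 stood lower than Cxcl9. Cxcl10 had the lowest difference of all genes tested in the fit of all arrays. Its place below the list was thus largely fixed beforehand, and nothing is concluded from it.

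The same-numbered arrays give these values in another way. In pair 1, DKO minus WT was -1.52 for Cxcl10, -1.17 for Cxcl11 and -0.05 for Cxcl9, while the interferon-stimulated list differed by -0.48. In pair 2 it was -4.30 for Cxcl10, -1.85 for Cxcl11 and -1.51 for Cxcl9, while that list differed by -1.61. Single genes of the list ranged from -1.35 to 0.98 in pair 1 and from -3.06 to -0.81 in pair 2. None of the 28 stood lower than Cxcl10 in either pair, which was again largely fixed by its place as the lowest of all genes. In pair 1, 2 stood lower than Cxcl11, and in pair 2, 12 did. For Cxcl9 these numbers were 26 and 14.

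**Figure D2:**
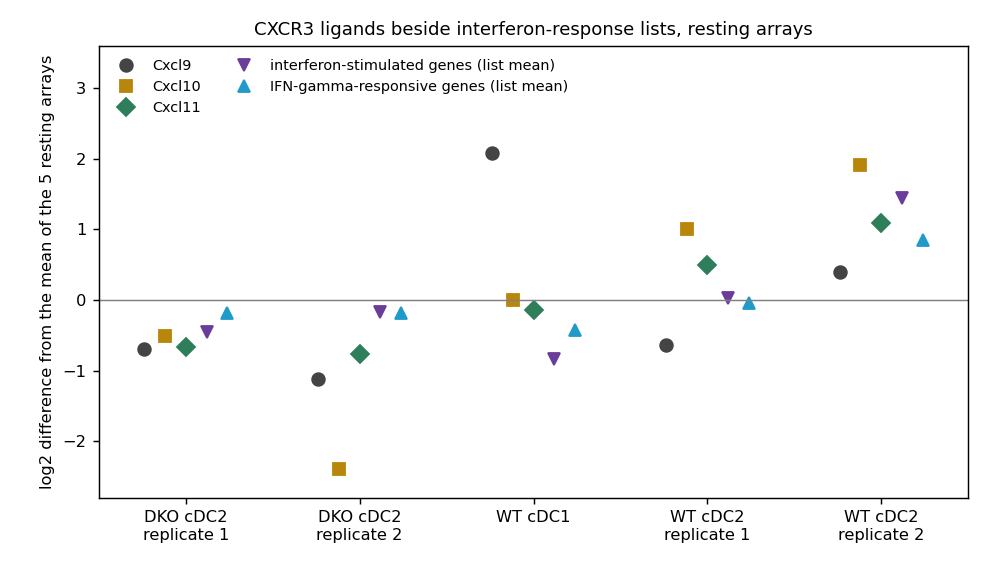
Values on the 5 resting arrays (horizontal axis) as log2 differences from the mean of those arrays, for each chemokine and for the means of the interferon-stimulated and IFN-gamma-responsive gene lists. Cxcl10 stands at 1.01 on WT cDC2 replicate 1, where the interferon-stimulated list stands at 0.03, and Cxcl9 is highest on the cDC1 array at 2.08.

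Markers of other chemokine-making cells stood mostly lower in resting DKO than in resting WT cDC2, none past the threshold without the replicate block. Monocyte markers averaged 6.85 and 6.86 in resting DKO cDC2, against 7.47 and 7.17 in resting WT cDC2, and all 7 tested stood lower in DKO, with a median of -0.68. Macrophage markers averaged 6.85 and 6.68 in resting DKO cDC2, against 7.04 and 7.20 in resting WT cDC2, with 6 of 8 tested lower and a median of -0.59. The other 2 were Spic and Adgre1. Spic read 9.56 and 9.08 in resting DKO, against 8.86 and 8.48 in resting WT. Adgre1 read 7.43 and 7.90 in resting DKO, against 7.52 and 7.71 in resting WT. Plasmacytoid dendritic cell markers averaged 7.01 and 6.68 in resting DKO cDC2, against 7.44 and 7.49 in resting WT cDC2, with 4 of 4 tested lower and a median of -0.95. None of these markers passed the threshold, and 1 plasmacytoid marker did with the replicate block. Without WT resting replicate 2 the medians were -0.77, -0.36 and -0.79 for the monocyte, macrophage and plasmacytoid lists. Of the 6 cDC2 markers tested, 4 stood lower in resting DKO too, with a median of -0.43 (-0.49 without WT resting replicate 2). Of these cDC2 markers 0 passed, and 1 did as lower with the replicate block. The macrophage genes Cd5l and Mertk were at or below 5.42 on every array, and Siglech, which defines plasmacytoid dendritic cells, was at or below 5.97, with no test for these dim genes. The part of such cells in the chemokine differences was not tested.

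In activated cDC2 the same comparison gave small differences. Cxcl9 averaged 12.21 ± 0.01 in DKO and 12.42 ± 0.03 in WT, a difference of -0.21 ± 0.32. Cxcl10 averaged 12.29 ± 0.14 in DKO and 12.64 ± 0.13 in WT, a difference of -0.34 ± 0.60. Cxcl11 averaged 10.10 ± 0.05 in DKO and 10.26 ± 0.00 in WT, a difference of -0.16 ± 0.19 (SD, n = 2 each, for all these means). By limma none passed (adjusted p = 1 for each), where 2 of all genes did (0.0186%) and 638 (5.95%) had an unadjusted p under 0.05. With the replicate block 61 of all genes passed by limma (0.569%), and Cxcl9, Cxcl10 and Cxcl11 had adjusted p of 0.817, 0.837 and 0.726.

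All 3 were still lower on both DKO arrays than on both WT arrays after activation, as were 13.5% of all genes. The 95% intervals were -0.99 to 0.58 for Cxcl9, -1.78 to 1.10 for Cxcl10 and -0.61 to 0.29 for Cxcl11. The resting differences of Cxcl10 and Cxcl11, as point values, lay outside these intervals, and that of Cxcl9 lay inside. The resting values have errors too. The resting interval of Cxcl10, -4.35 to -1.47, overlapped its activated one, and that of Cxcl11, -1.96 to -1.06, did not. The intervals are not adjusted for the number of genes. The direct comparison is the difference in induction, which passed for no gene, so nothing is concluded from the intervals. The SE comes from the spread of all groups, and the activated arrays were closer together than the resting ones. The brightest gene of each array read 13.52 to 13.69, so activated Cxcl9 and Cxcl10 lay near the top of the scale, where probe signals are known to flatten. The part of this in the small differences, and in the inductions given below, was not tested.

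Induction by IFN-gamma and LPS was large in both genotypes, and all 3 chemokines passed in each. In WT all 3 lost the call when only the compared groups entered the limma fit (adjusted p = 0.0643 for Cxcl9, 0.0742 for Cxcl10 and 0.0643 for Cxcl11). In DKO cDC2 Cxcl9 rose by 5.50 ± 0.32, or 45.2-fold, the largest increase of all genes tested (limma adjusted p = 0.00131). Cxcl10 rose by 5.18 ± 0.60, or 36.4-fold, the third largest increase (limma adjusted p = 0.0059). Cxcl11 rose by 4.35 ± 0.19, or 20.4-fold (limma adjusted p = 0.000325). Of all genes 13.7% passed here, 5.82% higher and 7.90% lower. Each chemokine was higher on both activated arrays than on both resting ones, as were 21.0% of all genes.

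In WT cDC2 Cxcl9 rose by 4.93 ± 0.32, or 30.4-fold, again the largest increase (limma adjusted p = 0.00282). Cxcl11 rose by 3.01 ± 0.19, or 8.04-fold (limma adjusted p = 0.0023), and Cxcl10 by 2.62 ± 0.60, or 6.14-fold (limma adjusted p = 0.0448). Of all genes 10.5% passed, 3.97% higher and 6.57% lower, and 19.9% were higher on both activated arrays, as each chemokine was. Cxcl10 ranked 30 among the increases in WT cells and 3 in DKO cells. Its call in WT was lost without any 1 of the 4 WT arrays (2.17 to 3.07, adjusted p from 0.0733 to 0.185), and in DKO without DKO activated replicate 1 (5.08, adjusted p = 0.0508). Leaving out WT resting replicate 2 gave increases in WT of 5.45 for Cxcl9, 3.07 for Cxcl10 and 3.30 for Cxcl11. With the replicate block 4080 genes passed by limma in DKO (38.0%) and 3791 in WT (35.3%), and all 3 chemokines were among them in both.

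The induction of each chemokine was larger in DKO than in WT cDC2 in the fitted means, Cxcl10 the most, and this difference passed the threshold for no gene tested. For Cxcl10 it was 2.57 ± 0.84, a 5.92-fold larger induction (95% interval 0.53 to 4.60), the highest of all 10728 genes. For Cxcl11 it was 1.34 ± 0.26, or 2.54-fold (95% interval 0.71 to 1.98). For Cxcl9 it was 0.57 ± 0.46, or 1.49-fold (95% interval -0.54 to 1.68). These intervals are not adjusted for the number of genes. Each value equals the activated genotype difference minus the resting one. The rank of Cxcl10 here thus largely restates its place as the lowest resting difference. The adjusted p was 1 for all 3, and limma called 0 genes (0%), with 121 (1.13%) at an unadjusted p under 0.05. With the replicate block it also called 0. Without WT resting replicate 2 the difference was 2.11 for Cxcl10, 1.05 for Cxcl11 and 0.05 for Cxcl9 (limma adjusted p = 1 for each).

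By pairs of the same number, Cxcl10 was induced by 4.34 and 6.03 in DKO cDC2, against 3.16 and 2.08 in WT cDC2. Cxcl11 was induced by 4.34 and 4.36 in DKO cDC2, against 3.30 and 2.71 in WT cDC2. Cxcl9 was induced by 5.29 and 5.70 in DKO cDC2, against 5.47 and 4.38 in WT cDC2, and there the genotypes overlapped. The activated levels of each chemokine lay within 0.35 of each other between genotypes in every pair, and the resting levels lay up to 4.30 apart. Of the 28 interferon-stimulated genes 14 rose in DKO (median 1.72), where 5.82% of all genes did, and 2 in WT (median 0.96), where 3.97% did. In the fit with the block 27 rose in DKO and 14 in WT, and without WT resting replicate 2 it was 14 in WT (median 1.65). Of the 10 IFN-gamma-responsive genes 8 rose in DKO (median 2.52) and 7 in WT (median 1.92, and 2.58 without that array). With the block 9 rose in each genotype. Of all genes tested, 1393 rose in DKO and 1222 in WT with the block. The fitted induction of the interferon-stimulated genes was larger in DKO as well, all 28 on the higher side with a median of 0.72 and 0 past the threshold. Without WT resting replicate 2 that median was 0.12, with 18 of 28 on the higher side.

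**Figure D3:**
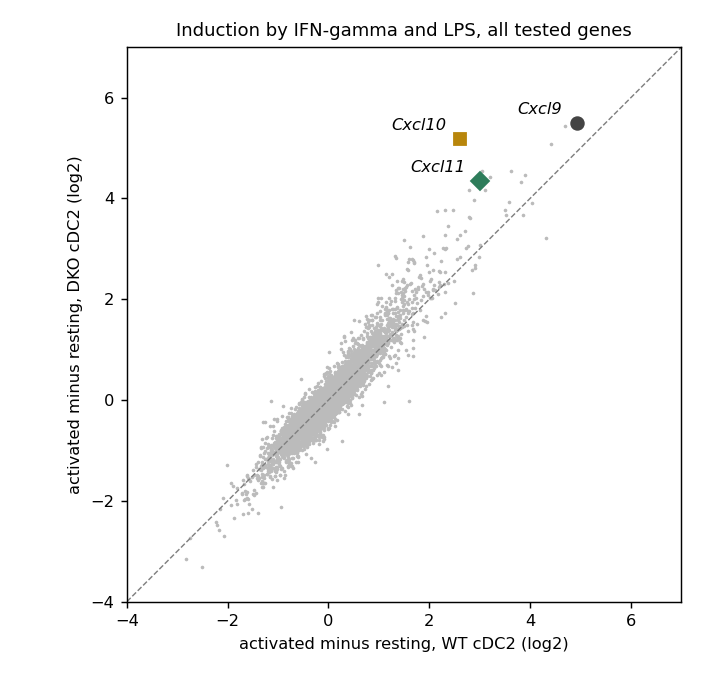
Activated minus resting (log2) in DKO cDC2 (vertical) against WT cDC2 (horizontal) for the 10728 genes tested (grey), with equality as a dashed line. Cxcl9 lies at 5.50 and 4.93, Cxcl11 at 4.35 and 3.01, and Cxcl10 stands furthest above the line at 5.18 and 2.62 (DKO and WT).

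From other work cDC1 are known as a source of CXCL9 for T cells. The array of resting cDC1 differed from resting WT cDC2 in opposite directions within the family. Cxcl9 was higher in cDC1 by 2.20 ± 0.40, or 4.61-fold (limma adjusted p = 0.0178), above both cDC2 arrays. Cxcl11 was lower, at -0.94 ± 0.23, or 0.522 times the cDC2 level (limma adjusted p = 0.0442), and Cxcl10 stood at -1.45 ± 0.73 (limma adjusted p = 0.243), each below both cDC2 arrays. Of all genes 13.6% passed, 7.08% higher and 6.56% lower, and 38.1% and 40.0% lay above and below both cDC2 arrays. With the replicate block the limma calls numbered 3751 (35.0%), and those of Cxcl9 and Cxcl11 held (adjusted p = 0.00569 and 0.0213). The title of the cDC1 array holds no replicate number. Every block result for cDC1 rests on setting that array with replicate 1. With 1 cDC1 array, the spread of that group was borrowed from the cDC2 groups.

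The interferon lists moved with the lower pair. All 28 interferon-stimulated genes stood lower in cDC1, with a median of -1.56 (-1.23 with the replicate block). Of these, 7 passed as lower (10 with the replicate block), where 6.56% of all genes did. With the block 1900 of all genes tested passed as lower and 1851 as higher (35% together). Without WT resting replicate 2, which leaves a single array on each side, the median was -0.73 and 26 of 28 stood lower. Without that array Cxcl10 was at -1.0, Cxcl9 at 2.72 and Cxcl11 at -0.64. Each of the 3 chemokines thus kept its direction, and no call of these chemokines is taken from a fit with a single array on each side. With only the compared groups in the fit, the calls of Cxcl9 and Cxcl11 were lost.

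**Figure D4:**
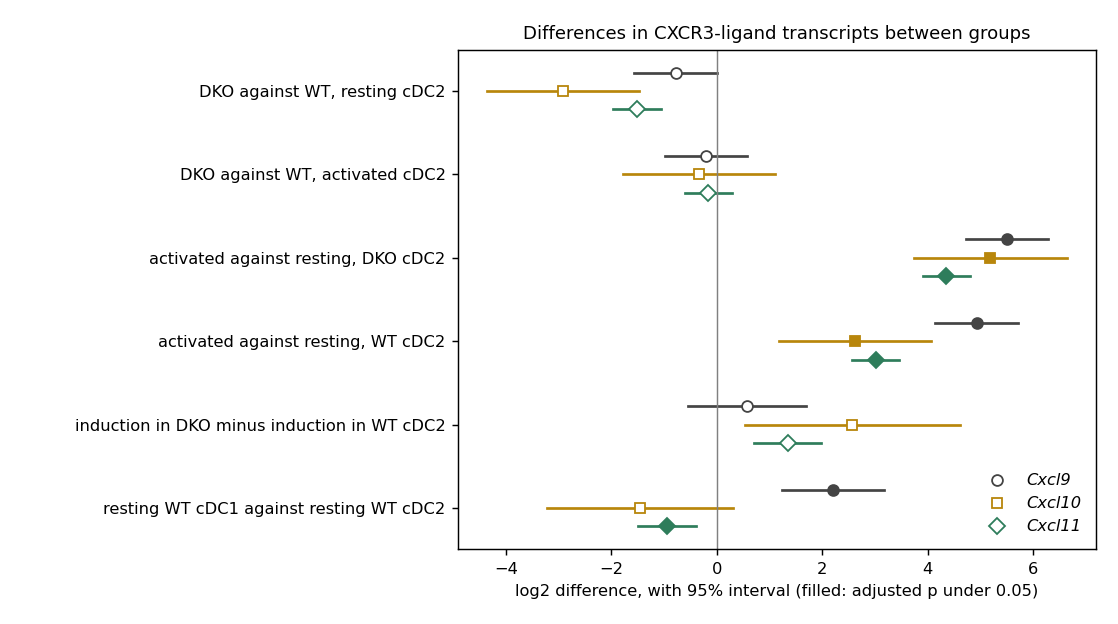
Log2 differences of Cxcl9, Cxcl10 and Cxcl11 (horizontal axis) with 95% intervals from limma, for each of the 6 comparisons (rows); filled symbols have an adjusted p under 0.05. All symbols are filled for activation in both genotypes, open for every genotype comparison, and at rest cDC1 lie right of 0 for Cxcl9 (2.20) and left of 0 for Cxcl11 (-0.94).

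Of 12 other CXC chemokines on the array 7 were bright enough to be tested, and in activation 0 passed in either genotype (1 as lower in WT with the replicate block or without WT resting replicate 2). Cxcl1, a ligand of the neutrophil receptor CXCR2, stood at 0.47 ± 0.19 in DKO and 0.37 ± 0.19 in WT (limma adjusted p = 0.145 and 0.236). The median of the 7 was -0.08 in each genotype, against -0.09 in DKO and -0.07 in WT over all genes. Cxcl16, a membrane-bound ligand of CXCR6, read 11.73 to 11.89 on all cDC2 arrays and 12.40 in cDC1. Between cDC1 and cDC2, 2 of the 7 passed by limma, where 13.6% of all genes did, both higher in cDC1. They were Cxcl16 at 0.52 ± 0.10 (limma adjusted p = 0.0228) and the platelet chemokine Ppbp at 1.85 ± 0.31 (limma adjusted p = 0.0144). At rest all 7 stood at or below 0 in DKO against WT, with a median of -0.23 (-0.48 without WT resting replicate 2) and 0 past the threshold, and Cxcl3 at -0.44 ± 0.24 had the smallest p (limma adjusted p = 0.915).

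Receptor transcripts were dim in these cells. Cxcr3 itself read 6.26 to 6.94 on all arrays, close to the brightness limit, and differed by -0.13 ± 0.13 in resting DKO against WT (limma adjusted p = 1). Ackr3, a scavenging receptor for CXCL11, read 4.82 to 5.21 and was not tested. Dpp4, the protease that trims and inactivates these chemokines, read 8.18 to 9.68 and differed by -0.32 ± 0.41 in resting DKO against WT (limma adjusted p = 1). Of the 2 tested, 0 passed in any of the 6 comparisons, with unadjusted p no lower than 0.0758.

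Of the interferon receptor and STAT pathway, 14 genes were tested. None passed between the genotypes at rest or after activation, and the medians were -0.04 and -0.09. The smallest p at rest was that of Stat2, a factor of type I interferon signalling, at -0.71 ± 0.32 (limma adjusted p = 0.806). After activation it was that of Irf1, an early IFN-gamma target that activates chemokine promoters, at -0.38 ± 0.16 (limma adjusted p = 0.838). On activation 5 rose and 1 fell in DKO, where 5.82% of all genes rose and 7.90% fell, and 4 rose and 1 fell in WT, where 3.97% rose and 6.57% fell. The block gave 6 that rose and 3 that fell in DKO, and 6 and 2 in WT. Over all genes tested, the block called 1393 higher and 2687 lower in DKO (38% together). In WT it called 1222 higher and 2569 lower (35.3% together).

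Irf8, a partner of BATF proteins, rose by 3.92 ± 0.33 in DKO and 4.04 ± 0.33 in WT (limma adjusted p = 0.00314 and 0.00375). The feedback inhibitor Socs3 rose by 2.37 ± 0.25 in DKO and 2.50 ± 0.25 in WT, and Irf1 by 2.14 ± 0.16 in DKO and 2.32 ± 0.16 in WT (limma adjusted p at most 0.0068). Socs1, another feedback inhibitor, rose by 1.38 ± 0.33 in DKO (limma adjusted p = 0.0445) and stood at 0.92 in WT (limma adjusted p = 0.126). Ifngr1, the ligand-binding chain of the IFN-gamma receptor, fell by 1.22 on the log2 scale in DKO and by 1.04 in WT (limma adjusted p = 0.00788 and 0.0165). In cDC1 against cDC2 Ifngr1 was higher by 1.51 ± 0.19 and Irf8 by 2.09 ± 0.41, and the kinase Jak2 stood at -1.03 ± 0.18 (limma adjusted p = 0.0059, 0.0229 and 0.0158). Transcripts of the interferons were low. Ifng read 4.94 to 5.18 on all arrays. Ifnb1, named after its values were seen, read 6.37 and 4.71 in activated DKO and 5.76 and 4.92 in activated WT cDC2, against 4.15 to 4.71 on all resting arrays.

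Of the pathway from LPS to IRF3 and NF-kappaB, 19 genes were tested and 0 passed between genotypes, with medians of -0.04 at rest and 0.02 after activation. On activation 4 rose and 1 fell in DKO, and 4 rose and 0 fell in WT, against the same shares of all genes. Under the block 9 rose and 3 fell in DKO, and 10 rose and 3 fell in WT. Of all genes tested, 1393 rose and 2687 fell in DKO under the block, and 1222 and 2569 in WT. Nfkbiz, a nuclear co-regulator of NF-kappaB targets, rose by 2.57 ± 0.17 in DKO and 2.07 ± 0.17 in WT. The adaptor Myd88 rose by 1.45 ± 0.24 in DKO and 1.29 ± 0.24 in WT, and the feedback enzyme Tnfaip3 by 0.94 ± 0.12 in each (limma adjusted p at most 0.028 for these 3 genes). In cDC1 against cDC2, 6 of the 19 were lower and 0 higher (10 and 1 with the replicate block). Of all genes, 6.56% were lower and 7.08% higher. Among the 6 lower genes of the list were Nfkbiz at -1.22 ± 0.21 and Tnfaip3 at -1.05 ± 0.15 (limma adjusted p = 0.0155 and 0.00829). With the replicate block 1900 of all genes tested were lower in cDC1 and 1851 higher. Between the genotypes at rest, 11 genes of this list stood below 0 and 8 above. The smallest p there was that of Nfkbiz, at -0.36 ± 0.17 (limma adjusted p = 0.817). After activation it was that of Ticam1, at -0.33 ± 0.11 (limma adjusted p = 0.737). Irf7 read 9.93 and 10.62 in resting DKO cDC2, against 10.27 and 12.27 in resting WT cDC2. The part of either pathway in the chemokine differences was not tested.

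The genes whose pattern was most like each chemokine were ranked by the root mean square difference of log2 values over the 9 arrays, after centring each gene on its mean, among 10125 named genes. The arrays share the step between resting and activated cells, so high correlations are common, and the values are a description. For Cxcl10 the nearest was Cmpk2, a nucleotide kinase gene induced by interferon (0.62, Pearson r = 0.979), then Cxcl11 (0.65, r = 0.962), Ifi206 (0.73), Trim30d (0.82) and the guanylate-binding protein gene Gbp5 (0.83). The 2 resting DKO arrays gave 8.37 and 7.18 for Cmpk2, against 9.50 and 10.25 on the resting WT cDC2 arrays. As for Cxcl10, replicate 2 was the lower of the DKO pair and the higher of the WT pair. Cmpk2 differed by -2.10 ± 0.57 in resting DKO against WT (limma adjusted p = 0.582).

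For Cxcl11 the nearest were Calhm6 (0.39, r = 0.985), Gbp5 (0.42), Phxr4 (0.46), Trim30d (0.47) and the cytokine Il6 (0.49), and Cxcl10 ranked 18. For Cxcl9 they were Il6 (0.76, r = 0.967), Irf8 (0.78, r = 0.973), Calhm6 (0.80), the IFN-gamma-induced GTPase Iigp1 (0.89) and Gprc5c (0.95), with Cxcl11 at rank 8 and Cxcl10 at rank 16. Of the named neighbours of Cxcl9, Irf8 shared its high level in cDC1, at 9.94 against 8.06 and 7.65 in resting WT cDC2. Between the genotypes at rest, DKO minus WT was 0.20 ± 0.33 for Irf8 (limma adjusted p = 1).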

How the data were processed

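A kit for picogram inputs was used to label the RNA, per the labels' protocols. Per the submitters' processing notes, RMA was run in Affymetrix Expression Console (no version given). The deposited table holds 1 intensity for each transcript cluster on each array, not on a log scale (medians 53.4 to 55.6). RMA brings arrays to a shared distribution, so a difference in total RNA is not visible, and the number of arrays limits the precision.

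Log2 was taken. Of 28853 clusters, 21789 carried 1 symbol, 1621 several and 5443 none in the platform annotation, and symbols were updated through GRCm38.p6. For each of 19938 genes the cluster of highest mean was used. Tests covered genes whose mean in any group exceeded the median one-symbol value (61.3 before log2) and used lmFit and eBayes of limma 3.58.1 (two-sided; R 4.3.3), tested on simulated data first. Intervals are limma's. Replicate numbers of the cDC2 arrays came from the titles. The cDC1 title holds no number, and its array was set with replicate 1 in the block. Replicate deviations of the cDC2 groups correlated across genes at r = 0.45 to 0.69 in all 6 pairs of groups, which was taken as pairing. The block result is given where it changes a call or a count. Groups were taken from the titles. Pathway genes are named where they had the largest changes past the threshold, up to 4 a list, or the smallest p where none passed. Neighbours are the 5 nearest genes. The chemokines, lists and tests were chosen with earlier results of these data known. Alternatives were no brightness filter, quantile normalization, median centring, the block, only the groups compared, a variance trend, and each cDC2 array left out.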

Additional observations from a re-analysis of the deposited data

How the results depend on the processing

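Of 186 recomputed values of the 3 chemokines, 171 kept their direction and their side of the threshold, 13 kept the direction and lost the call, 2 gained one, and 0 changed sign. The fits were without the brightness filter, with quantile normalization, median centring, the replicate block, a variance trend, the compared groups alone, and each cDC2 array left out. Cxcl11 in resting DKO against WT cDC2 stood at -1.51 and passed with the replicate block (limma adjusted p = 0.0257). With arrays left out it ranged from -1.80 to -1.21. Its other gained call came without WT resting replicate 1, which leaves the array high in interferon genes as the only WT resting array. Without the brightness filter, Cxcl10 induction in WT (2.62, adjusted p = 0.072) and Cxcl11 in cDC1 against cDC2 (-0.94, adjusted p = 0.0613) lost their calls, as more genes were tested. With only the compared groups in the fit, the calls lost were induction in WT of Cxcl9 (4.93, adjusted p = 0.0643), Cxcl10 (2.62, adjusted p = 0.0742) and Cxcl11 (3.01, adjusted p = 0.0643), and cDC1 against cDC2 for Cxcl9 (2.20, adjusted p = 0.272) and Cxcl11 (-0.94, adjusted p = 0.327), as fewer arrays gave the spread. With arrays left out, Cxcl10 induction ranged from 4.24 to 6.13 in DKO and from 2.17 to 3.07 in WT, and Cxcl11 in cDC1 against cDC2 from -1.23 to -0.64. Cxcl10 in resting DKO against WT ranged from -3.85 to -1.97 and Cxcl9 from -1.30 to -0.26, and the difference in induction from 1.62 to 3.51 for Cxcl10, 1.05 to 1.64 for Cxcl11 and 0.05 to 1.09 for Cxcl9, none past the threshold by limma.

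Counts of all genes called moved with the fit. With the replicate block they were 79 and 61 for the genotype at rest and after activation (2 and 2 without it), 4080 and 3791 for activation in DKO and WT (1472 and 1131 without it), and 3751 for cDC1 (1464 without it). With only the compared groups they were 0, 0, 757, 5 and 0 in the same order. The variance trend gave 1 at rest. With arrays left out they ranged from 0 to 6 for the genotype at rest, were 0 after activation, and ranged from 217 to 617 for activation in DKO, 63 to 550 in WT and 798 to 828 for cDC1. The block changed no other chemokine call. The list values without WT resting replicate 2 and with the block, given above, are alternatives chosen after seeing the data. No member had another cluster on the array, so that alternative was not run.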
